A study of Mus musculus with 96 samples.

Results

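Rgs16 and 5 receptor genes for hormones and growth factors, Avpr1a, Adra1b, Gcgr, Lepr and Egfr, were followed in the livers of clock-mutant mice over the day. The 6 genes were chosen with earlier results of these data known, so counts of members called, set beside shares of all genes, are descriptions only. They were taken by their symbols from a table of 55421 gene identifiers, of which 35670 had any read. The data were 96 liver RNA libraries from mice aged 12 to 16 weeks, made every 4 h at 6 times of day, given as zeitgeber time (ZT), the hours since the lights came on. Mice belonged to a Bmal1 line, as wild type (Bmal1 WT) or knockout (Bmal1 KO), or to a Cry line, as wild type (Cry WT) or lacking both Cry1 and Cry2 (Cry KO). They ate ad libitum (AL) or only at night (restricted feeding, RF). Each line, genotype and feeding made a group, 8 in all, named in that order (Bmal1 WT AL, Cry KO RF and so on), with 12 libraries each and 2 at each time. Within each group the libraries carry 1 of 2 replicate numbers, and the 6 that share a number are called a series here. Strain, sex and the tissues from which the genes were deleted were not given in the sources used here.

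BMAL1 is an activator of the circadian clock, and CRY1 and CRY2 are repressors of it. Hormones that call on liver glycogen act through receptors on the hepatocyte. The vasopressin receptor encoded by Avpr1a and the alpha-1B adrenergic receptor encoded by Adra1b couple to G proteins of the Gq class, which release calcium and so activate glycogen phosphorylase. The glucagon receptor encoded by Gcgr couples to Gs and raises cyclic AMP. RGS16 is a regulator of G protein signalling: it speeds the hydrolysis of GTP by alpha subunits of the Gi and Gq classes and so shortens the signal. LEPR, the leptin receptor, is a cytokine receptor that signals through JAK2 and STAT3, and its short and soluble forms are made in liver. EGFR is the receptor tyrosine kinase for EGF, TGF-alpha and related ligands and is abundant on hepatocytes.

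Rgs16 (ENSMUSG00000026475) lies on mm10 chromosome 1 at 153740349 to 153745468, and Lepr (ENSMUSG00000057722) on chromosome 4 at 101717404 to 101815352. Avpr1a (ENSMUSG00000020123) lies on chromosome 10 at 122448499 to 122453452. Chromosome 11 carries Egfr (ENSMUSG00000020122, 16752203 to 16918158), Adra1b (ENSMUSG00000050541, 43774606 to 43901210, minus strand) and Gcgr (ENSMUSG00000025127, 120530699 to 120538986). All 6 are protein-coding genes, and counts are summed over the whole gene. An annotated antisense gene overlaps 4 of them, and its own count came to 11.4% of the gene's count for Gcgr, 3.35% for Avpr1a, 0.266% for Rgs16 and 0.189% for Egfr. The strand setting of the counting was not stated in any source used here, so reads of a gene and of its antisense partner cannot be told apart.

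The upstream sequences of the 3 members with a daily rhythm are shown because their transcripts followed the time of day, as described below. Each is the 250 bases before the RefSeq start of the gene on GRCm38.p6, written 5′ to 3′ on the gene's own strand, with capitals marking the only searched motif found.
Rgs16, chr1:153740103-153740352, plus strand: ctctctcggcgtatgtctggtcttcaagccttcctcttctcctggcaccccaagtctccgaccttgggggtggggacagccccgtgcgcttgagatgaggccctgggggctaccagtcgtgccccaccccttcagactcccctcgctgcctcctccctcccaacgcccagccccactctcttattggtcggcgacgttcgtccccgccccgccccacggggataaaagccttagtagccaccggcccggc
Avpr1a, chr10:122448249-122448498, plus strand: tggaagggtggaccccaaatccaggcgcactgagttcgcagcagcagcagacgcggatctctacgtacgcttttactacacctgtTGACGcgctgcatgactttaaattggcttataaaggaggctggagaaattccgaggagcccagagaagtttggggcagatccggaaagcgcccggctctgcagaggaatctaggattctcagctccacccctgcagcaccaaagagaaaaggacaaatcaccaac
Adra1b, chr11:43901238-43901487, minus strand: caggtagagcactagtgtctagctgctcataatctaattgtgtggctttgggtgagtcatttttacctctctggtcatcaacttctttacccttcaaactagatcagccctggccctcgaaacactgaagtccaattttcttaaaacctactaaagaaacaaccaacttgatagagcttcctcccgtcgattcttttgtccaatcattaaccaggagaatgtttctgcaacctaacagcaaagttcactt

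In these windows and the 50 bases that follow each start, both strands were searched for the E-box CACGTG bound by BMAL1 with CLOCK, the related CACGTT, the D-box (TTATGTAA or TTACGTAA), the cyclic AMP element TGACGTCA and its core TGACG. The element of the REV-ERB and ROR receptors was searched too. Of 32851 RefSeq promoters of the same length, 7.15% held CACGTG, 4.68% CACGTT, 1.06% a D-box, 0.110% the REV-ERB and ROR element, 1.79% TGACGTCA and 20.8% TGACG. All 6 members matched the table, 2 of them (Lepr and Adra1b) with a second start. The only match among them was TGACG in Avpr1a, beginning 165 bases before the start. For the other words this says only that those letters are not in these windows.

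Libraries held between 1478963 and 35568856 counts, median 25422366. No label links a library to an animal, so the p-values set a difference against the spread of these libraries, not of animals known to be separate. The main fit takes the libraries as independent. In limma-voom the consensus correlation within a series was 0.248 with a mean per group and time and 0.229 with a 24 h cosine. Counts of the deleted genes run over the whole gene, and where the deletions lie was not stated: Arntl, the gene of BMAL1, ranged over 9.71 to 14.9 CPM (counts scaled to library size) in Bmal1 KO AL and over 0.272 to 35.3 CPM in Bmal1 WT AL. In Cry KO AL, Cry1 ranged over 5.38 to 9.95 CPM and Cry2 over 17.8 to 26.6 CPM, against 5.95 to 51.4 and 18.9 to 56.8 CPM in Cry WT AL. Knockout and wild-type ranges overlapped in each of these cases, so the counts do not by themselves check the labels. The 8 hepatocyte markers examined were read in all libraries, and their summed level was lower in Bmal1 KO AL (between 30583 and 50510 CPM) than in Bmal1 WT AL (between 72627 and 123273 CPM), without overlap. Under RF the sums were 34885 to 52163 CPM in Bmal1 KO and 50915 to 96283 CPM in Bmal1 WT. The largest part of these sums is 1 gene, Alb. Its mean over all libraries was 55036 CPM, and the next marker, Cps1, had 6103 CPM. Under AL, median marker sums in Bmal1 WT and KO were 346 and 351 CPM for endothelial cells and 266 and 302 CPM for stellate cells. They were 233 and 215 CPM for Kupffer cells and 41.5 and 67.0 CPM for cholangiocytes, and the ranges of each pair overlapped. In bulk tissue, fewer cells of a type and less RNA of its markers per cell, here mainly Alb, cannot be told apart. The part of the hepatocyte sums in any result on the Bmal1 KO was not tested. Of 7 libraries that stood apart by genes of the acute phase, of interferon response or of exocrine pancreas, 2 bear on Lepr and are named there. Several also hold Rgs16 levels quoted below. These are series 2 at ZT12 and series 4 at ZT8 of Cry WT AL, and series 6 at ZT12 of Cry WT RF. In Cry KO RF they are series 5 at ZT4 and ZT8.

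Per kilobase of exon, the mean level over all libraries was highest for Gcgr (86.0 CPM per kb) and Egfr (82.4), followed by Adra1b (25.2), Avpr1a (14.5), Rgs16 (9.01) and Lepr (1.09). Lepr ranked 10073 of 15755 genes on this scale, and the other members lay between ranks 502 and 3395. For each of the 6 genes the 8 group means could be put in order, but no neighbours in any order differed by more than the larger of their SDs over 12 libraries. These SDs run over all 6 times and so include the daily cycle. Neighbours in rank are not always a compared pair, so the orders do not show whether groups differ. All 6 passed the filter on low counts. A change of mean level is given as a log2 difference, the average over the times of day with its SE, taken from edgeR's quasi-likelihood test on all 96 libraries, with Benjamini-Hochberg adjustment over 15772 genes, and a change was called at an adjusted p under 0.05. A rhythm was called at an adjusted p under 0.05 from a 24 h cosine whose fitted range, peak minus trough, was at least 0.5 log2.

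Rgs16 had the deepest daily cycle of the 6 genes in wild-type liver, high at ZT8 and ZT12 and low at the other times. In Bmal1 WT AL its libraries ran from 0.0664 to 107 CPM with a median of 1.66 CPM. Both libraries at ZT8 (21.7 and 107 CPM) and both at ZT12 (103 and 17.7 CPM) stood above all others of the group, the highest of which had 3.26 CPM. Bmal1 WT RF had 81.1 and 9.63 CPM at ZT8, 17.4 and 39.0 CPM at ZT12, and 0.395 and 0.389 CPM at ZT20. In Cry WT AL the levels were 23.3 and 50.8 CPM at ZT8, 130 and 24 CPM at ZT12, and 0.321 and 0.0277 CPM at ZT0. In Cry WT RF they were 93.8 and 72.5 CPM at ZT8 and 0.337 and 0.992 CPM at ZT0, while the ZT12 libraries were far apart at 3.06 and 52.4 CPM. In all 4 groups the highest library was at ZT8 or ZT12, and the 2 libraries of these times often stood far apart.

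The 3 members Rgs16, Avpr1a and Adra1b were called rhythmic in each wild-type group, that is 3 of 6 in Bmal1 WT AL (9.97% of all genes were called there), Bmal1 WT RF (12.8%), Cry WT AL (6.67%) and Cry WT RF (18.9%). The fitted peak of Rgs16 fell at ZT 10.1, 9.46, 10.8 and 9.88 in these groups in that order. Its fitted ranges were 8.04, 7.54, 7.38 and 5.80 log2, with edgeR adjusted p = 1.34e-05, 7.89e-05, 2.77e-05 and 0.000291. Without the libraries that stood apart, the range was 5.48 log2 in Cry WT AL and 6.40 log2 in Cry WT RF. With 1 library per time left, the call was lost without series 2 of Bmal1 WT RF (adjusted p = 0.154) and without series 6 of Cry WT RF (0.0944).

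Without BMAL1, Rgs16 was nearly absent under ad libitum feeding. In Bmal1 KO AL 11 of 12 libraries lay between 0 and 0.289 CPM, and a single one, series 1 at ZT12, had 5.37 CPM, so that the median was 0.0523 CPM. At 5 of the 6 times both KO libraries were below both WT libraries, and at ZT8 the mean was 0.119 CPM against 64.4 CPM, 542-fold lower. The KO libraries at ZT8 held 3 and 2 reads of Rgs16, so the size of that ratio is imprecise. The mean level fell by 5.01 ± 0.96 on the log2 scale (edgeR adjusted p = 5.55e-05, n = 12 per group). This was 1 of 4 members called in Bmal1 KO under AL, beside 24.4% of all genes. The call was lost without series 8 of Bmal1 WT AL (−4.12, adjusted p = 0.342) and when the series was a random effect in limma-voom (−5.14, adjusted p = 0.282). The fitted range of 7.54 log2 in this group rested on the single ZT12 library and was not called (edgeR adjusted p = 0.711), but was called without the filter on low counts (5.095e-47). The fit without that filter called 583 genes rhythmic in this group, against 5 with it, and still rests on that library for Rgs16.

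Under restricted feeding some Bmal1 KO libraries held more Rgs16, mainly those of 1 series. Series 4 of Bmal1 KO RF had 13.8 CPM at ZT8 and 18.6 CPM at ZT12, whereas series 2 had 0.329 and 1.93 CPM at those times and its highest level, 5.49 CPM, at ZT16. In 3 libraries of the group no read was counted, against 1 under AL. The 12 libraries spanned 0 to 18.6 CPM with a median of 0.906 CPM, and overlapped Bmal1 WT RF (0.181 to 81.1 CPM). The difference from WT was −1.49 ± 0.89 log2 (edgeR adjusted p = 0.256), and without series 4 it was −4.68 (adjusted p = 0.0281). A rhythm with a fitted peak at ZT 10.9 was called (range 5.35 log2, edgeR adjusted p = 0.0413), as 1 of 2 members in this group beside 5.26% of all genes. It was lost without series 2 (adjusted p = 0.0875), without series 4 (0.493), without the libraries that stood apart (0.0551), with a test of any difference between the 6 times (0.166) and with the series as a random effect (limma-voom, 0.221). Between RF and AL in the Bmal1 KO the edgeR estimate was 3.29 ± 2.76 log2 (adjusted p = 0.634). DESeq2 called that difference (3.49, adjusted p = 0.000863), with 4 libraries at 0 among those compared.

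Without CRY and under ad libitum feeding, Rgs16 stood above wild type at the hours when wild-type liver had little of it. In Cry KO AL the libraries spanned 3.62 to 104 CPM with a median of 28.1 CPM. At ZT0 the 2 KO libraries had 11.5 and 20.9 CPM against 0.321 and 0.0277 CPM in WT, 92.8-fold higher by the means, and at ZT20 they had 33.3 and 104 CPM against 2.98 and 0.660 CPM, 37.6-fold higher. The WT libraries at ZT0 held 8 and 1 reads of Rgs16, so the size of that ratio is imprecise. At ZT8 the means differed by 1.28-fold (47.3 against 37.0 CPM), and at ZT12 the KO mean was the lower one (18.3 against 76.9 CPM). Both KO libraries exceeded both WT libraries at 4 of 6 times, and at ZT8 and ZT12 the libraries overlapped. Averaged over the day the level rose by 2.85 ± 0.58 log2 (edgeR adjusted p = 0.000190). Series 2 of Cry KO AL was above series 1 at all 6 times (means 48 and 19.6 CPM), and without series 2 the call was lost (1.97, adjusted p = 0.0754), as it was with the series as a random effect (limma-voom adjusted p = 0.115).

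In Cry KO RF Rgs16 was high from ZT0 to ZT8 and low at ZT16 and ZT20. The libraries had 143 and 51.7 CPM at ZT0, 83.0 and 50.8 CPM at ZT4, and 74.8 and 147 CPM at ZT8. They had 2.61 and 8.06 CPM at ZT16 and 6.33 and 18.3 CPM at ZT20. Against Cry WT RF the mean was 146-fold higher at ZT0 and 17.7-fold higher at ZT4, with no overlap of libraries, and 1.32-fold higher at ZT16, with overlap. The WT libraries at ZT0 held 10 and 5 reads of Rgs16, so the size of the ratio there is imprecise. At ZT20 both KO libraries were again above both WT libraries, which had 0.511 and 5.46 CPM (means 12.3 against 2.98 CPM). The day's mean rose by 2.52 ± 0.57 log2 (edgeR adjusted p = 0.00247), a call lost without series 6 of Cry WT RF (2.03, adjusted p = 0.134) and with the series as a random effect (limma-voom adjusted p = 0.463).

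The cosine of Rgs16 had a range of 0.27 log2 in Cry KO AL and of 4.24 log2 with a peak at ZT 4.88 in Cry KO RF, where the edgeR adjusted p was 0.0641. With an intercept per series, a replicate block, that rhythm was called (adjusted p = 0.0244), as it was in limma-voom with the series as a random effect (0.00229). The rhythm itself differed between Cry KO and WT under AL (edgeR adjusted p = 0.0105), a call lost without any 1 of the 4 series compared (adjusted p from 0.0905 to 0.184) and without the libraries that stood apart (0.191). Under RF the difference of rhythm had an adjusted p of 0.0545, and it was called without the libraries that stood apart (0.0222), with the intercept per series (0.0322) and with the random effect (0.0391). In the Bmal1 KO no difference of the Rgs16 rhythm was called (adjusted p = 1 under AL and 0.921 under RF), though both were without the filter on low counts (0.00323 and 4.434e-13). Over all genes, that fit called 750 differences under AL and 938 under RF, against 121 and 208 with the filter. The differences of the Rgs16 range hardly moved, at −0.49 log2 with the filter and −0.53 without under AL, and −2.19 and −2.11 under RF. The gain thus lay in the adjusted p and not in the size.

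**Figure D1:**
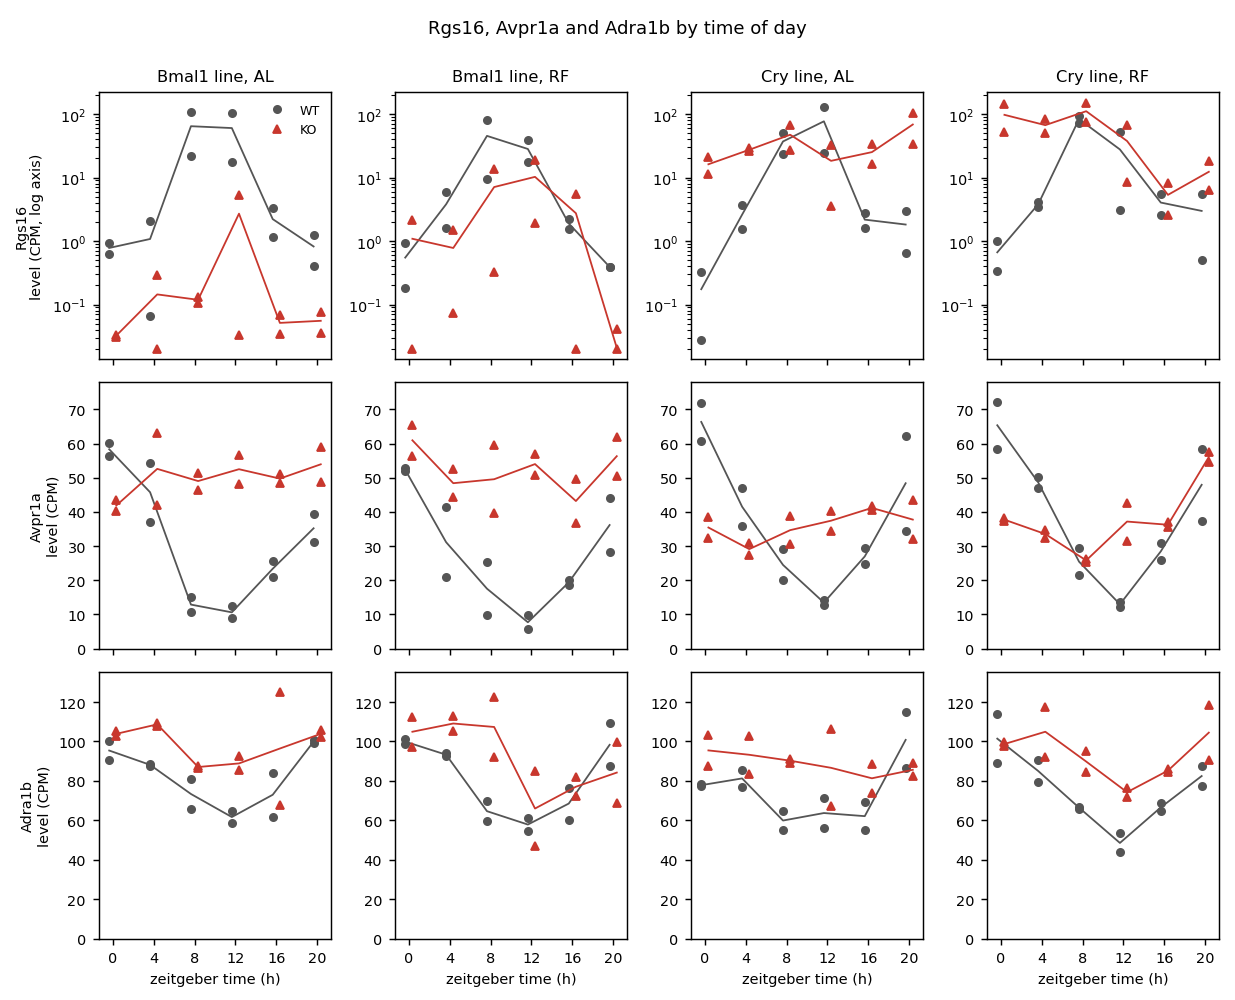
Level of Rgs16 (CPM, log axis, values of 0 drawn at the lower edge), Avpr1a and Adra1b (CPM, linear axes) against zeitgeber time (h) in the Bmal1 and Cry lines under AL and RF. Grey circles are WT and red triangles KO libraries, and lines join the means of the 2 libraries per time. Avpr1a of WT fell to between 5.66 and 14.3 CPM at ZT12, and all KO libraries stood above that at ZT12.

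Avpr1a cycled in the opposite phase in wild-type liver, high at lights on and low at lights off, and no such cycle was called by edgeR in either knockout. In Bmal1 WT AL the libraries had 60.3 and 56.4 CPM at ZT0 and 8.90 and 12.3 CPM at ZT12, and in Bmal1 WT RF 51.9 and 52.8 CPM at ZT0 and 9.78 and 5.66 CPM at ZT12. In Cry WT AL they had 71.8 and 60.9 CPM at ZT0 and 14.3 and 12.7 CPM at ZT12, and in Cry WT RF 72.2 and 58.5 CPM at ZT0 and 13.7 and 12.2 CPM at ZT12. In these 4 groups the ZT0 and ZT12 libraries did not overlap, and the means of the 2 times stood 4.92-fold to 6.78-fold apart. The fitted peaks fell between ZT 23.6 and ZT 23.8, with ranges of 2.44, 2.37, 2.05 and 2.09 log2 (edgeR adjusted p = 3.86e-10, 1.02e-09, 4.95e-08 and 4.39e-08).

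In the Bmal1 KO, Avpr1a stood near the level that wild type reached at lights on, at all times. Its 12 libraries ran from 40.3 to 63.2 CPM with a median of 48.6 CPM under AL and from 36.8 to 65.5 CPM with a median of 51.7 CPM under RF. The corresponding WT libraries ran from 8.90 to 60.3 CPM (median 28.4) and from 5.66 to 52.8 CPM (median 23.1). At ZT12 the KO mean was 4.95-fold the WT mean under AL and 7-fold under RF. At ZT0 under AL it was 1.39-fold lower, and both KO libraries were below both WT libraries. The mean level rose by 0.94 ± 0.12 log2 under AL (edgeR adjusted p = 1.47e-08) and by 1.16 ± 0.12 log2 under RF (adjusted p = 5.01e-11), the only member called there, beside 20.6% of all genes. Both calls held under all 11 alternatives run for each.

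In the Cry KO, Avpr1a kept to the middle of the wild-type range under AL, and under RF it was lowest at ZT8 and highest at ZT20. Its libraries spanned 27.3 to 43.6 CPM under AL (median 36.5) and 25.3 to 57.4 CPM under RF (median 36.2), inside the WT ranges of 12.7 to 71.8 CPM and 12.2 to 72.2 CPM. The KO was 1.87-fold lower than WT at ZT0 and 2.78-fold higher at ZT12 under AL, and 1.73-fold lower and 2.87-fold higher at those times under RF. None of these 4 pairs of cells overlapped. The mean level was not called, at 0.14 ± 0.12 log2 under AL (edgeR adjusted p = 0.378) and 0.13 ± 0.12 under RF (0.651). In Cry KO RF the 2 libraries at ZT20, 54.8 and 57.4 CPM, were the highest of the group, and those at ZT8, 25.3 and 26.3 CPM, the lowest. The fitted range there was 0.82 log2 (edgeR adjusted p = 0.0737), called with an intercept per series (0.0470), with the random effect (limma-voom, 0.0353) and without the filter on low counts (0.00192).

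The difference of rhythm between KO and WT was called for Avpr1a in all 4 comparisons. It was the only member called in Bmal1 KO under AL (edgeR adjusted p = 7.78e-06, difference of range −2.30 log2, 0.767% of all genes called) and under RF (0.000270, −2.14, 1.32%). In Cry KO the adjusted p was 0.000170 under AL, where Rgs16 was the other of 2 members called beside 0.913% of all genes, and 0.00319 under RF, where it was 1 of 1 beside 2.66%. The call was lost without series 4 of Bmal1 KO RF (adjusted p = 0.0734), and under RF in the Cry line without series 5 of Cry KO RF (0.151) or series 6 of Cry WT RF (0.0853). Avpr1a was also called between the wild types, higher in Cry WT than in Bmal1 WT by 0.33 ± 0.12 log2 under AL (edgeR adjusted p = 0.0451, 1 of 6 members and 20.5% of genes called) and by 0.54 ± 0.12 under RF (0.00932, 1 of 6 and 0.856%). Their ranges overlapped. Leaving out any 1 of the 4 series ended the call under AL (adjusted p from 0.0520 to 0.330), and so did leaving out the libraries that stood apart (0.0539). Under RF it ended without series 2 of Bmal1 WT RF (0.214) and without series 6 (0.0630) or series 9 (0.177) of Cry WT RF, and in the compared groups alone (0.118). With the series as a random effect, limma-voom called it under neither feeding (0.406 and 1). Gcgr was lower in Cry WT under AL by 0.18 ± 0.07 log2 without a call (edgeR adjusted p = 0.0503), and was called by DESeq2 (−0.17, 0.0424), in the compared groups alone (−0.18, 0.0170) and without series 8 of Bmal1 WT AL (−0.25, 0.0346).

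Adra1b, the other Gq-coupled receptor, followed the phase of Avpr1a with a shallower cycle. In the 4 wild-type groups its libraries ran from 58.8 to 101 CPM (median 85.9) in Bmal1 WT AL, 54.3 to 109 CPM (82.0) in Bmal1 WT RF, 55.1 to 115 CPM (74.1) in Cry WT AL and 43.7 to 114 CPM (73.1) in Cry WT RF. The cell means were lowest at ZT12 in 3 groups and at ZT8 in Cry WT AL, and highest at ZT20 or ZT0. Fitted peaks fell between ZT 22.6 and ZT 0.0941, with ranges of 0.67, 0.88, 0.62 and 0.92 log2 (edgeR adjusted p = 0.0128, 0.000368, 0.0266 and 0.000120). These calls need both series in most cases: under AL each was lost when either series was left out (adjusted p from 0.177 to 0.397), and under RF without series 4 of Bmal1 WT RF (0.221) or series 9 of Cry WT RF (0.119). A test of any difference between the 6 times did not call it under AL in either line (0.144 and 0.0767), and in Cry WT AL the call was also lost without the libraries that stood apart (0.0538) and without the filter on low counts (0.0772).

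Knockout livers held slightly more Adra1b than wild type. Under AL its libraries spanned 67.6 to 125 CPM in the Bmal1 KO (median 102) and 67.0 to 106 CPM in the Cry KO (median 88.8). Under RF they spanned 46.9 to 123 CPM in the Bmal1 KO (median 94.6) and 71.9 to 118 CPM in the Cry KO (median 91.4). All 4 overlapped their WT group. The rise was 0.28 ± 0.09 log2 in Bmal1 KO under AL (edgeR adjusted p = 0.0151), 0.28 ± 0.09 in Cry KO under AL (0.0116) and 0.33 ± 0.09 in Cry KO under RF (0.0107). In Bmal1 KO under RF the difference was 0.20 ± 0.09 (0.110). Both KO libraries were above both WT libraries at 5 of 6 times in Bmal1 KO AL and Cry KO RF, at 3 in Cry KO AL and at 2 in Bmal1 KO RF. None of the 3 calls held with the series as a random effect (limma-voom adjusted p = 0.253, 0.188 and 0.598). Leaving out series 8 of Bmal1 KO AL (0.17 log2, adjusted p = 0.258), series 2 (0.14, 0.548) of Cry KO AL or series 4 (0.15, 0.314) of Cry WT AL, or series 3 of Cry KO RF (0.28, 0.117) or series 6 of Cry WT RF (0.31, 0.137) ended them. So did leaving out either series of Bmal1 WT AL (0.26 and 0.28, adjusted p = 0.106 and 0.0607) or the filter on low counts in that comparison (0.0524), and under AL in the Cry line so did fitting the compared groups alone (0.0511).

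A rhythm of Adra1b was also called in Bmal1 KO RF, with its peak at ZT 3.01 (range 0.69 log2, edgeR adjusted p = 0.0171). It was lost without series 2 (0.0993) or series 4 (0.253), and with the test of any difference between times (0.101). In Bmal1 KO AL 0 of 6 members were called rhythmic by edgeR, beside 0.0317% of all genes (5 genes). There 1 member, Rgs16, had an unadjusted p under 0.05, as did 919 genes, and limma-voom called 15 genes. In Cry KO AL edgeR called 0 members and 0% of genes, with 0 members and 1260 genes at an unadjusted p under 0.05 and 2 genes by limma-voom. In Cry KO RF it called 0 members and 6.63% of genes, with 4 members, Rgs16, Lepr, Avpr1a and Adra1b, at an unadjusted p under 0.05 and 3 members called by limma-voom. Between KO and WT, no difference of the Adra1b rhythm was called (adjusted p from 0.310 to 0.984), except in Bmal1 under RF without series 4 of the KO (0.0401).

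**Figure D2:**
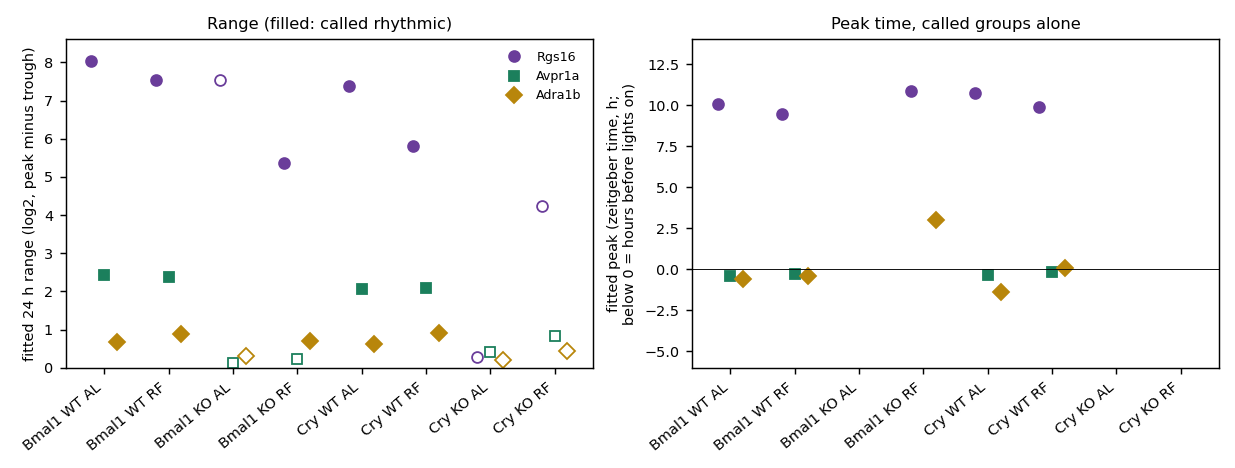
Fitted 24 h range (log2, left) and fitted peak time (h, right) of Rgs16, Avpr1a and Adra1b in the 8 groups. Filled symbols at the left are called rhythms, and the right panel shows called rhythms alone, with hours before lights on drawn below 0. Rgs16 peaked between ZT 9.46 and 10.9 wherever it was called, and Avpr1a between ZT 23.6 and 23.8.

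Between RF and AL no difference of rhythm was called for any member by edgeR with the filter on low counts, in Bmal1 WT (0.0127% of all genes called), Bmal1 KO (0%), Cry WT (0.0888%) or Cry KO (0%). Members with an unadjusted p under 0.05 numbered 1, Rgs16 in Cry KO, where its range was 3.97 log2 larger under RF (adjusted p = 0.633). Limma-voom, with the series as a random effect, called 0 members in these 4 comparisons.

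Gcgr, the glucagon receptor, was high and even in all groups. The 96 libraries lay between 155 and 312 CPM, and group medians between 201 CPM in Cry KO RF and 253 CPM in Bmal1 WT AL. No rhythm was called in any group, with fitted ranges from 0.09 to 0.27 log2 (edgeR adjusted p from 0.240 to 1). In Bmal1 KO AL it fell by 0.18 ± 0.07 log2 (201 to 251 CPM against 218 to 309 CPM in WT, edgeR adjusted p = 0.0382), and both KO libraries were below both WT libraries at 5 of 6 times. Without series 1 of the KO (−0.12, adjusted p = 0.368) or of the WT (−0.13, 0.347), with the series as a random effect (limma-voom, 0.222), or without the filter on low counts (0.363), the call was lost. In Bmal1 KO under RF the difference was −0.04 ± 0.07 (0.699), in Cry KO under AL 0.07 ± 0.07 (0.449) and in Cry KO under RF −0.20 ± 0.07 (0.0619). Without series 1 of Cry KO AL the difference under AL was called (0.19, 0.0231), and under RF it was called by DESeq2 (0.0455) and without series 3 of Cry KO RF (−0.34, 0.00418).

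Gcgr was also the only member called between feedings. It was lower under RF by 0.23 ± 0.07 log2 in Bmal1 WT (edgeR adjusted p = 0.0144, 1 of 6 members, 15.7% of genes called) and by 0.21 ± 0.07 in Cry KO (0.0223, 1 of 6, 18.2%). AL and RF groups hold different series. With the series as a random effect, limma-voom called 2 of all genes in Bmal1 WT and 0 in Cry KO, against 2476 and 2863 by edgeR. The libraries ran from 184 to 234 CPM under RF against 218 to 309 CPM under AL in Bmal1 WT, and from 172 to 239 CPM against 192 to 312 CPM in Cry KO, and each pair of ranges overlapped. In Cry KO the series parted the libraries as much as feeding did: series 1 and 2 of AL had means of 209 and 263 CPM and series 3 and 5 of RF 224 and 184 CPM, with series 2 above 1 and 3 above 5 at all 6 times. Without series 2 the difference was −0.04 (adjusted p = 0.860), without series 5 −0.07 (0.661), and without the libraries that stood apart −0.16 (0.131). In Bmal1 WT the call was lost without series 1 of AL (−0.17, 0.215), series 2 of RF (−0.23, 0.101) or series 4 of RF (−0.26, 0.0907). The random effect of series left neither call (limma-voom adjusted p = 0.224 and 0.319), nor did a fit without the filter on low counts (0.114 and 0.291), and the fit of the compared groups alone ended that in Cry KO (0.247). No member was called by edgeR between feedings in Bmal1 KO (0.545% of genes called) or Cry WT (1.59%), whereas without the filter on low counts Rgs16, Lepr and Egfr were called in both. In each of these Lepr alone had an unadjusted p under 0.05, while DESeq2 called 1 member in Bmal1 KO (Rgs16, above) and 0 in Cry WT, and a fit of the compared groups alone called Lepr in Cry WT (0.82 ± 0.30 log2, 0.0146).

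Lepr, the scarcest of the 6 transcripts, rose in the Cry KO. In Cry KO AL the 12 libraries ran from 5.97 to 27.1 CPM with a median of 15.8 CPM, and all were above the highest of Cry WT AL, whose range was 1.90 to 4.39 CPM and median 3.40 CPM. The smallest gap was at ZT16, with 7.28 and 5.97 CPM in KO and 4.03 and 4.39 CPM in WT, and the widest ratio at ZT8, with 22.6 and 27.1 CPM against 2.83 and 3.85 CPM, 7.43-fold by the means. The rise was 2.10 ± 0.30 log2 (edgeR adjusted p = 5.73e-07), 1 of 3 members called beside 33.0% of all genes, with Rgs16 and Adra1b. It was called in all 10 alternatives run, among them the random effect of series and each series left out.

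Under RF, Lepr ran from 3.38 to 51.0 CPM in Cry KO (median 14.9) and from 1.59 to 14.2 CPM in Cry WT (median 6.40), and the ranges overlapped. Both KO libraries were above both WT libraries at ZT0 (27.4 and 9 against 2.32 and 1.59 CPM), ZT4 and ZT8 (51.0 and 21.4 against 7.25 and 4.92 CPM), and at ZT20 the KO mean was 1.63-fold lower. The rise over the day was 1.33 ± 0.30 log2 (edgeR adjusted p = 0.00228), 1 of 3 members called beside 6.3% of all genes, again with Rgs16 and Adra1b. Series 3 of Cry KO RF was above series 5 at all 6 times (means 24.4 and 10.7 CPM). Without series 3 the difference was 0.54 (adjusted p = 0.376), without series 9 of Cry WT RF 1.17 (0.0758), and with the random effect of series 1.23 (limma-voom, 0.534). The cosine in Cry KO RF had a range of 2.24 log2 with a peak at ZT 6.59 (edgeR adjusted p = 0.0919), which was called with an intercept per series (0.0193), with the random effect (limma-voom, 0.000722) and without the libraries that stood apart (0.0120). Its difference from WT (adjusted p = 0.189) was called with the random effect (0.00929) and without those libraries (0.0254).

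In the Bmal1 line no change of Lepr was called, at −0.24 ± 0.31 log2 under AL (edgeR adjusted p = 0.622) and 0.35 ± 0.31 under RF (0.478). In Bmal1 WT the libraries ran from 1.39 to 8.12 CPM under AL and from 2.20 to 7.46 CPM under RF, and those of Bmal1 KO AL from 1.47 to 5.36 CPM. In Bmal1 KO RF the median was 3.04 CPM, and 1 library, series 4 at ZT0, had 61.1 CPM, the highest of all 96. The same library had 7533 CPM of Saa1, an acute-phase gene. The next highest of the group, series 4 at ZT12, had 14.8 CPM of Lepr and was not among the libraries that stood apart. The other library that stood apart by Saa1 was series 6 of Cry WT RF at ZT12, with 21931 CPM of Saa1 and 14.2 CPM of Lepr, the highest of its group. Without the 7 libraries that stood apart, the difference in Bmal1 KO under RF was −0.20 (adjusted p = 0.744), and the rise in Cry KO under RF was 1.53 (0.000543). With the library at 61.1 CPM included, a test of any difference between the 6 times called Lepr in Bmal1 KO RF (adjusted p = 0.000235), where the cosine did not (0.159).

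**Figure D3:**
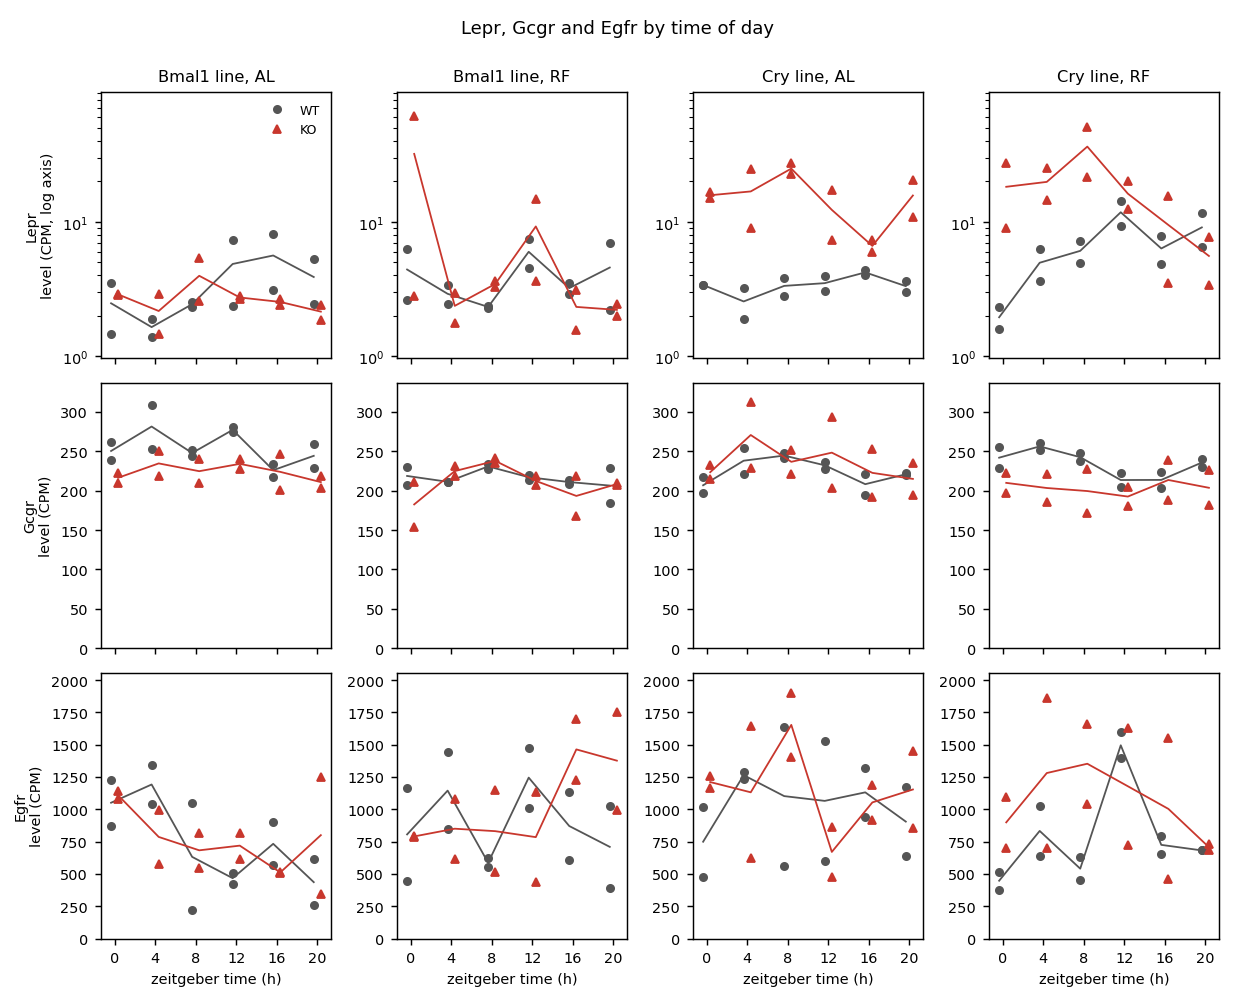
Level of Lepr (CPM, log axis), Gcgr and Egfr (CPM, linear axes) against zeitgeber time (h), drawn as in the plot of Rgs16, Avpr1a and Adra1b, with WT grey and KO red. All 12 Lepr libraries of Cry KO AL lie above the 12 of Cry WT AL, and the point at 61.1 CPM in Bmal1 KO RF is a single library.

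Egfr varied widely from library to library and was called by edgeR in no comparison of mean level or rhythm, though without the filter on low counts 10 were called. The 96 libraries spanned 217 to 1903 CPM, and the group medians 668 CPM (Cry WT RF) to 1176 CPM (Cry KO AL). Libraries of a single group and time lay as far apart as 217 and 1046 CPM (Bmal1 WT AL, ZT8) or 458 and 1548 CPM (Cry KO RF, ZT16). The knockout effects were 0.09 ± 0.25 log2 in Bmal1 under AL (edgeR adjusted p = 0.830), 0.18 ± 0.25 under RF (0.678), 0.12 ± 0.25 in Cry under AL (0.754) and 0.52 ± 0.25 under RF (0.248). Changes of the size called for Adra1b, 0.28 to 0.33 log2, are within 2 SE here and were not detectable for Egfr. Fitted ranges ran from 0.32 to 1.07 log2 (adjusted p from 0.222 to 1).

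**Figure D4:**
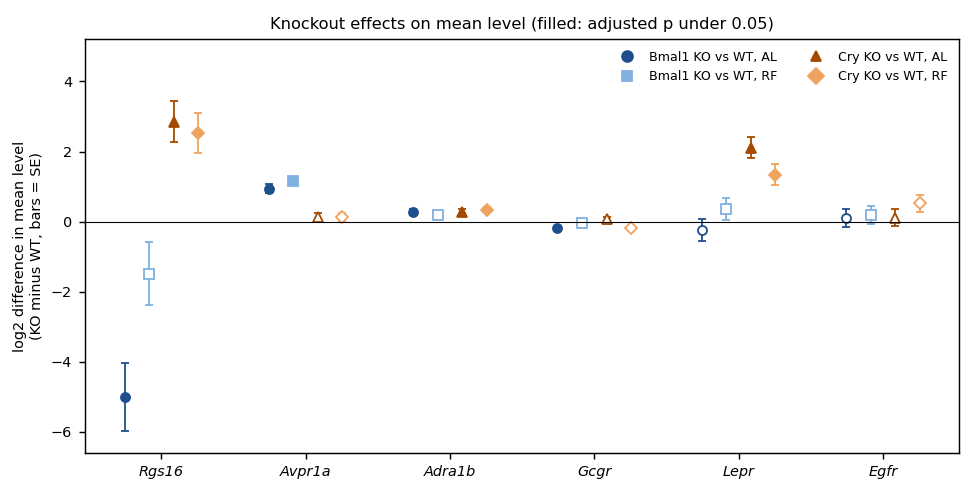
Log2 difference in mean level between KO and WT for the 6 genes, with SE, in 4 comparisons of 12 libraries each. Filled symbols have an edgeR adjusted p under 0.05. Rgs16 lay at −5.01 in Bmal1 KO and at 2.85 in Cry KO under AL, and Lepr was called in Cry KO alone.

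The knockouts of activator and repressors were set against each other by testing the difference between their effects. Under AL that difference was called for 4 of 6 members, beside 40.8% of all genes. It was 7.86 ± 1.11 log2 for Rgs16 (edgeR adjusted p = 1.53e-07), 2.35 ± 0.43 for Lepr (2.30e-05), −0.80 ± 0.17 for Avpr1a (0.000182) and 0.25 ± 0.09 for Gcgr (0.0302). Under RF 2 of 6 were called, beside 15.2%: Rgs16 at 4.01 ± 1.03 (0.00391) and Avpr1a at −1.03 ± 0.17 (6.65e-06). For Lepr under RF it was 0.98 ± 0.43 (0.125) and rose to 1.73 (0.00341) without the libraries that stood apart, 1.65 (0.00403) without series 4 of Bmal1 KO RF and 1.47 (0.0222) without series 5 of Cry KO RF. For Gcgr under RF it was −0.15 ± 0.09 (0.313), and was called without series 3 of Cry KO RF (−0.29, 0.0490). For Adra1b the difference was 0.00 ± 0.12 under AL (0.994) and 0.14 ± 0.12 under RF (0.526). The Avpr1a calls and the Lepr call under AL held in all 14 alternatives. Those of Rgs16 did not hold with the series as a random effect (limma-voom adjusted p = 0.0539 and 0.261), nor without series 8 of Bmal1 WT AL (7, 0.240) or series 2 (3.86, 0.183) or series 4 (3.56, 0.105) of Bmal1 WT RF. The call of Gcgr was lost in 7 of 14 alternatives, with values from 0.08 without series 2 of Cry KO AL to 0.25 in the compared groups alone.

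Whether feeding changed the knockout effect was tested too. By edgeR 0 of 6 members were called in the Bmal1 line (0% of all genes, with 1036 genes and 0 members at an unadjusted p under 0.05) and 0 of 6 in the Cry line (6.33%). In the Cry line Gcgr alone had an unadjusted p under 0.05, at −0.26 ± 0.09 (adjusted p = 0.0725), which DESeq2 called (0.0474). Without series 3 of Cry KO RF both Gcgr (−0.41, 0.0337) and Lepr (−1.56, 0.0465) were called, and without series 1 of Cry KO AL Gcgr was (−0.38, 0.000726). The knockout and feeding comparisons share their groups, so their values are given side by side and are not independent.

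Over the 48 means of group and time, the gene most like Rgs16 was Nr1d2, with Pearson's r = 0.910 of log2 levels, followed by Dbp (0.862) and Slc25a47 (0.849), among 9463 genes of at least 5 CPM. Nr1d2 encodes the repressor REV-ERB beta and Dbp a clock output factor. Avpr1a was most like Slc30a10 (0.893), Stra6l (0.886) and Pnkd (0.878), and Adra1b most like Shank2 (0.870), Cutal (0.845) and Lipa (0.834), which encodes lysosomal acid lipase. The closest to Lepr were Cyp3a13 (0.795), Vbp1 (0.795) and Mthfd1l (0.794). Those closest to Gcgr were Npepl1 (0.751), Stk11 (0.737) and Rnh1 (0.732), and to Egfr Scara5 (0.688), B3galt1 (0.653) and Rasal2 (0.650). Within the 6, Avpr1a and Adra1b had r = 0.708, Rgs16 and Lepr 0.626, and Rgs16 and Avpr1a −0.605. The means share libraries and genotypes, so these are descriptions.

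The genes around these receptors were counted from 9 lists by role. Of all genes, 24.4% were called in Bmal1 KO AL, 20.6% in Bmal1 KO RF, 33.0% in Cry KO AL and 6.3% in Cry KO RF, and the counts of each list stand beside these shares. The share of tested genes called ran over the lists from 0% to 62.5%, 8.33% to 50%, 16.7% to 40% and 0% to 37.5% in these comparisons, and was above that of all genes in 2, 6, 2 and 5 of the 9 lists. The lists, too, were chosen with earlier results of these data known, and no list is called particular from these counts. Calls of listed genes come from the main edgeR fit alone and were not followed under the alternatives. With the series as a random effect, limma-voom called far fewer of all genes, such as 1100 against 5205 in Cry KO AL and 161 against 994 in Cry KO RF. Of 10 ligands of the member receptors, 5 were expressed enough to test. Egf rose in Bmal1 KO, by 0.81 ± 0.20 log2 under AL (edgeR adjusted p = 0.00175) and 0.54 ± 0.19 under RF (0.0401). Btc, which encodes the EGFR ligand betacellulin, fell by 0.57 on the log2 scale in Cry KO AL (0.0204), and no ligand was called in Cry KO RF. Among 23 other hormone and growth factor receptors of liver, 3 rose and 3 fell in Bmal1 KO under each feeding (26.1% of the list, against 24.4% and 20.6% of all genes), with list medians of −0.05 log2 under AL and −0.06 under RF, beside 0.02 and 0.01 for all genes. Prlr, the prolactin receptor, rose by 1.32 ± 0.16 log2 under AL (2.67e-09) and 1.40 ± 0.16 under RF (5.85e-10). Esr1, the estrogen receptor, was −1.01 ± 0.17 (8.84e-06) and −1.05 ± 0.17 (5.10e-06) in these comparisons, called as lower in both. In Cry KO AL 1 receptor rose and 5 fell (26.1%, against 33.0% of all genes, list median −0.17, all genes −0.03), among them Adra1a, the alpha-1A adrenergic receptor (−0.75 ± 0.19, 0.00204), and in Cry KO RF 0 rose and 3 fell (list median −0.04, all genes −0.03).

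Inside the cell, the partners of these receptors were called in varying shares. Of 15 listed RGS genes besides Rgs16, 10 were tested. None was called in Bmal1 KO AL, Rgs9 alone rose in Bmal1 KO RF (1.71 ± 0.51 log2, edgeR adjusted p = 0.0103), and in Cry KO AL 2 fell (20% of those tested), with Rgs12 lower in Cry KO under AL (−0.42 ± 0.14, 0.0198) and RF (−0.61 ± 0.15, 0.00617). Of 10 G protein alpha subunits tested, 1 was called lower in Bmal1 KO AL, 3 lower in Bmal1 KO RF, 1 higher with 3 lower in Cry KO AL, and none in Cry KO RF. Gna12 fell in Bmal1 KO under AL (−0.57 ± 0.09, 3.15e-06) and RF (−0.45 ± 0.09, 0.000173) and rose in Cry KO AL (0.36 ± 0.09, 0.00265). Those that fell in Cry KO AL were Gnaq (−0.30 ± 0.09, 0.00926), which encodes a Gq alpha subunit, Gna13 (−0.24 ± 0.08, 0.0134) and Gnai3 (−0.23 ± 0.06, 0.00451), and in Bmal1 KO RF Gnai1 (−1.37 ± 0.29, 0.000207) and Gnai3 (−0.19 ± 0.06, 0.0262) fell beside Gna12. In the 15 genes of the Gq, calcium and glycogen phosphorylase pathway, Bmal1 KO AL had 3 higher and 0 lower (20% of the list), Bmal1 KO RF 4 higher and 1 lower (33.3%) and Cry KO AL 0 higher and 3 lower (20%), and Cry KO RF had none called. Phkb, a subunit of phosphorylase kinase, rose by 0.45 ± 0.09 log2 in Bmal1 KO AL (7.10e-05). Phka2, the liver alpha subunit of that kinase, was called rhythmic in 6 of 8 groups, with peaks between ZT 4.57 and ZT 6.86.

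Of 20 genes tested in the cyclic AMP pathway, onto which Gcgr signals, 3 rose and 1 fell in Bmal1 KO AL, 3 rose and 2 fell in Bmal1 KO RF, and in the Cry KO 5 fell under AL and 2 under RF, with 0 rising. These are 20%, 25%, 25% and 10% of the list. Prkaca, a catalytic subunit of protein kinase A, rose in Bmal1 KO by 0.31 ± 0.07 log2 under AL (edgeR adjusted p = 0.000318) and 0.38 ± 0.07 under RF (1.51e-05). The adenylyl cyclase gene Adcy6 fell in Cry KO under AL (−0.53 ± 0.12, 0.000485) and RF (−0.40 ± 0.12, 0.0275), and was called rhythmic in 3 wild-type groups with peaks between ZT 9.32 and ZT 9.97. In the EGF receptor pathway of 16 genes, the calls were 3 lower in Bmal1 KO AL, 1 higher with 3 lower in Bmal1 KO RF, 1 higher with 2 lower in Cry KO AL, and 1 each way in Cry KO RF (18.8%, 25%, 18.8% and 12.5%). Gab1, which encodes a docking protein, was lower in Bmal1 KO under both feedings (−0.55 ± 0.08, 1.12e-07 under AL) and higher in Cry KO AL (0.34 ± 0.08, 0.000681). Of 12 genes around the leptin receptor and JAK-STAT signalling, 1 was called in Bmal1 KO under each feeding (8.33%) and 2 in Cry KO AL (16.7%). Leprotl1 rose in Bmal1 KO (0.56 ± 0.07 under AL, 2.38e-08), Leprot and Socs2 rose in Cry KO AL (0.28 ± 0.09, 0.0186, and 0.97 ± 0.39, 0.0460), and none was called in Cry KO RF.

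Among 8 carbohydrate response genes, which are induced by feeding on sugar, 5 fell in Bmal1 KO AL (62.5% of the list, median −0.61 log2, all genes 0.02) and 4 in Bmal1 KO RF (50%, −0.47, all genes 0.01). In Cry KO AL 1 rose and 2 fell (37.5%, −0.07, all genes −0.03), and in Cry KO RF 3 rose and 0 fell (37.5%, 0.49, all genes −0.03). Thrsp fell by 1.84 on the log2 scale in Bmal1 KO AL (edgeR adjusted p = 2.68e-06) and by 2.27 in Bmal1 KO RF (3.07e-08), and rose by 1.12 ± 0.29 in Cry KO RF (0.00926). Fasn, which encodes fatty acid synthase, rose by 1.01 ± 0.25 in Cry KO RF (0.00569). The lower hepatocyte marker sums of the Bmal1 KO stand beside these falls, and their part in them was not tested.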

How the data were processed

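Poly(A) RNA of mouse liver was sequenced in 96 libraries with a stranded kit, per the labels' protocols. The deposited table holds raw read counts per gene, and STAR 2.4.0i and the build mm10 are named in the submitters' processing notes. Which program counted the reads, with which strand setting and annotation, was not stated in any source used here. Groups came from the sample labels. Identifiers were matched to symbols for 55240 of 55421 rows. Counts were scaled by TMM and filtered with filterByExpr (minimum count 10, minimum total 15), which kept 15772 genes and 99.9% of counts. The quasi-likelihood test of edgeR 4.0.16 (R 4.3.3) was fitted to all 96 libraries, with a mean for each of 48 cells of group and time or with a 24 h cosine per group, and p-values, all two-sided, were adjusted over all genes by the Benjamini-Hochberg method. CPM values were computed from these counts and the TMM library sizes. The scripts were tested on simulated data.

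The 6 members and all gene lists were chosen with earlier results of these data known. Named are all members, up to 4 called genes of the smallest p per list, and the 3 genes of highest Pearson r with each member. Alternatives were RLE size factors, no filter on low counts, DESeq2 1.42.0, limma-voom (limma 3.58.1) with the series as a random effect, an intercept per series, a test of any difference between times, no minimum range, the compared groups alone, the fit without 7 libraries that stood apart, and leaving out each series in turn. Replicate libraries differed by more than sampling noise. Promoters are from RefSeq.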

Additional observations from a re-analysis of the deposited data

Results flagged for a closer look

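The effects of the Cry and Bmal1 knockouts on mean level differed, by an edgeR test of the difference itself, in 6 cases. Under AL the Cry effect minus the Bmal1 effect was 7.86 log2 for Rgs16, 2.35 for Lepr, −0.80 for Avpr1a and 0.25 for Gcgr. Under RF it was 4.01 for Rgs16 and −1.03 for Avpr1a. The Gcgr call was lost in 7 of 14 alternatives, and those of Rgs16 in 2 under AL and 3 under RF. The knockouts came from separate lines, each compared with its own wild type. Avpr1a was also called between those wild types, but that call was lost in 6 of 10 alternatives under AL and 5 of 10 under RF.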

How the results depend on the processing

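Of 40 calls of single members, 14 were kept under every alternative run for them and 26 were lost under at least 1. The 14 are those of Avpr1a for mean level in Bmal1 KO (both feedings), rhythm in the 4 wild-type groups, difference of rhythm under AL in both lines and difference between knockout effects (both feedings), those of Lepr in Cry KO AL and for the AL difference between knockout effects, and the Rgs16 rhythm in Bmal1 WT AL and Cry WT AL. Without the filter on low counts, members called rhythmic numbered 5 in Bmal1 WT AL and Cry WT RF (Egfr and Lepr gained), 4 in Bmal1 KO RF (Egfr and Lepr gained) and Cry KO RF (all but Adra1b and Gcgr), and 1 in Bmal1 KO AL (Rgs16) and Cry KO AL (Lepr). For mean level in Cry KO RF 4 were called (Egfr gained, 0.51 log2, edgeR adjusted p = 0.000101), and the other counts moved to between 0 and 3. In all, 39 calls were gained without the filter, 16 of Lepr, 12 of Rgs16, 10 of Egfr and 1 of Avpr1a, with edgeR adjusted p from 7.987e-77 to 0.0373. Over all genes the fit without the filter called more in some comparisons and fewer in others. It called 825 against 86 for feeding in Bmal1 KO, and 4865 against 5205 for mean level in Cry KO AL. Calls were gained even for Egfr, which had at least 1977 counts in each library. Its fitted range in Bmal1 WT AL was 1.04 log2 with the filter and 1.03 without, while the edgeR adjusted p went from 0.288 to 1.475e-05. The cause was not tested. With the series as a random effect (limma-voom), counts for mean level fell to 1 in Bmal1 KO AL and Cry KO AL and to 0 in Cry KO RF, for feeding in Bmal1 WT and Cry KO, and for both comparisons of wild types, and for the difference between knockout effects to 2 under AL and 1 under RF. The number of all genes called fell from 3847 to 1277 in Bmal1 KO AL, 3244 to 1173 in Bmal1 KO RF, 5205 to 1100 in Cry KO AL and 994 to 161 in Cry KO RF. For feeding it fell from 2476 to 2 in Bmal1 WT, 2863 to 0 in Cry KO, 250 to 0 in Cry WT and 86 to 0 in Bmal1 KO. For the effect of feeding on the Cry knockout it fell from 999 to 0, and between wild types under AL from 3239 to 70. Rhythmic members were then 1 in Bmal1 KO RF and 3 in Cry KO RF, and 3 members differed in rhythm in Cry KO RF. Without the libraries that stood apart, 1 member was rhythmic in Bmal1 KO RF and in Cry KO RF, 1 differed in rhythm in Cry KO AL and 3 in Cry KO RF, and 0 were called for feeding in Cry KO and between wild types under AL. DESeq2 called 1 member for feeding in Bmal1 KO, 1 for the effect of feeding on the Cry knockout and 2 between wild types under AL. In the compared groups alone the counts were 1 for feeding in Cry WT, 0 for feeding in Cry KO, and 2 (AL) and 0 (RF) between wild types. The test of any difference between times called 1 member in Bmal1 KO RF.

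Leaving out 1 series at a time gave 0 rhythmic members in Bmal1 KO RF, 1 difference of rhythm in Cry KO AL and 0 to 1 in Cry KO RF. For mean level it gave 2 to 3 members in Bmal1 KO AL, 1 to 2 in Bmal1 KO RF, 1 to 4 in Cry KO AL and 1 to 3 in Cry KO RF. It gave 0 to 1 for feeding in Bmal1 WT and Cry KO and for both comparisons of wild types, 0 to 2 for the effect of feeding on the Cry knockout, and 3 to 4 (AL) and 1 to 3 (RF) for the difference between knockout effects. The difference of Adra1b rhythm between Bmal1 KO and WT under RF, −0.19 log2 and not called, ran from −0.3946 without series 2 of Bmal1 WT RF to 0.001864 without series 4 of Bmal1 KO RF (edgeR adjusted p = 0.0401).

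Knockout and wild type share 2 series numbers per feeding in the Bmal1 line, 1 number under AL and none under RF in the Cry line. Deviations of same-numbered series had r = 0.182 under AL and 0.218 under RF across 15772 genes, and no label says that a number marks a shared animal, litter or day. With the number as a replicate block, 4 members were called in Bmal1 KO AL and 1 in Bmal1 KO RF, as without it. As an intercept per series, the block gave 3 rhythmic members in Cry KO RF and 2 differences of rhythm there. No other pairing was possible because the groups share fewer than 2 numbers. Reads were fewest for Rgs16 in Bmal1 KO AL, where 11 of 12 libraries held 0 to 7 of them. Those libraries were not shallow, at 13287386 to 28835295 counts in all. The 5 shallowest libraries were series 2 of Bmal1 KO RF at ZT20 (3181499 counts), series 2 of Cry KO AL at ZT20 (2694543) and 3 of Cry KO RF. The latter were series 3 (1478963) and 5 (4541141) at ZT4, and series 5 at ZT12 (4883930). The levels and ratios given for Cry KO AL at ZT20 and Cry KO RF at ZT4 rest partly or wholly on these. The bearing of depth on the calls was not tested.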
